A study of Homo sapiens with 12 samples.

Results

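The genes described here are 34 transcripts of the amino acid stress response and of the cytosolic tRNA synthetases, taken as a list of names that was drawn up with earlier results of these arrays known: the transcription factor ATF4, its best known partners and targets in amino acid supply, and 16 enzymes that load amino acids onto tRNA. All 34 were on the array and all 34 passed the detection filter, among 10333 genes tested and 18665 genes named on the array. The array carried 46 probes for them, of which 40 were detected, and each gene is given by its brightest detected probe.

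The measurements came from SW-13, a line of human adrenal cortical carcinoma that lacks BRG1, the ATPase subunit of the SWI/SNF chromatin remodelling complex. The cells received an adenovirus for GFP (Ad-GFP) or for a fusion of GFP with BRG1 (Ad-BRG1), titrated to give about as much BRG1 as HeLa cells hold, so that all 4 groups carried an adenovirus and GFP. In each case they were then left untreated or given IFNγ, the cytokine of activated T and NK cells, for 6 h. Total RNA from 3 biological replicates of each of the 4 groups was hybridized to 12 single-colour Illumina Human-WG6 arrays. The model is thus a single tumour line with a gene put back from a virus, and it was compared with the same line carrying GFP alone.

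When amino acids run short or unfolded protein collects in the ER, kinases phosphorylate the translation factor eIF2, general protein synthesis slows, and the mRNA of ATF4 is translated more. ATF4 pairs with C/EBP proteins and turns on genes that take up amino acids, make asparagine, serine and cysteine, and charge tRNA. Growing tumour cells often keep this programme active, and mRNA of ATF4 itself is only a partial measure of it, because ATF4 is controlled largely at translation.

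Mean raw intensity per array was 627.2 to 666 for untreated Ad-GFP, 611.7 to 643.5 for untreated Ad-BRG1 and 570.7 to 650 for Ad-GFP with IFNγ. The Ad-BRG1 arrays with IFNγ were the dimmest group, at 539.9 to 571.1, so brightness before normalization differed by group. Pearson's r over all genes was 0.994 to 0.998 between arrays of the same group. IRF1, an IFNγ-induced transcription factor, read 7.90 to 8.62 (log2 intensity) on the 6 untreated arrays and 13.09 to 13.85 on the 6 IFNγ arrays. The probe for SMARCA4, the gene of BRG1, read 8.39 to 8.81 on all 12 arrays and so gives no check of which virus an array's cells received. Of 7 adrenal cortex markers, CYP11A1 alone was detected, and NR5A1 and STAR were not, so the labelled tissue of origin is not borne out by its defining markers. Of 5 leukocyte markers on the array CD68, a lysosomal protein not confined to leukocytes, was the single one detected, and PTPRC was not. Its summed linear intensity was 1034 to 1142 on the untreated Ad-GFP arrays and 1825 to 1981 on the untreated Ad-BRG1 arrays. Of 4 endothelial markers 1 was detected and of 4 epithelial markers 0. Of 4 fibroblast markers 3 were detected, with a summed intensity of 234 to 252 on the untreated Ad-GFP arrays and 314 to 332 on the untreated Ad-BRG1 arrays, and one of them, PDGFRB, was at least 2.46-fold higher with Ad-BRG1. PDGFRB was not detected on any Ad-GFP array and passed the detection filter through the Ad-BRG1 groups alone. Whether other cells contributed to the results was not tested, and in bulk RNA fewer cells of a type and less RNA per cell cannot be told apart.

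The first question was what BRG1 did to these genes. In untreated cells limma called 21 of the 34 lower and 7 higher with Ad-BRG1 (adjusted p under 0.05, Benjamini-Hochberg over all genes tested), against 30.3% lower and 26.7% higher among all genes. With IFNγ it called 20 lower and 7 higher, against 32.8% and 28.3% of all genes. The median log2 difference (Ad-BRG1 minus Ad-GFP) of the 34 was -0.27 untreated and -0.25 with IFNγ, where the median of all genes was -0.03 in either state. On single arrays the Ad-BRG1 and Ad-GFP values did not overlap for 29 of the 34 in untreated cells and for 28 with IFNγ, against 62.8% and 65.3% of all genes.

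The 2 states share no array, and 18 of the 34 were lower in both, 7 were higher in both, and none was called in opposite directions. Over all 10333 genes 2425 were lower in both, 2100 higher in both and 69 opposite. The 7 that were higher in both were VLDLR, SLC3A2, SESN2, SLC7A11, CTH, SHMT2 and HARS1, and they came from every role in the list. VLDLR was detected with Ad-BRG1 alone, and CTH was not called with the mean of its probes. The calls of HARS1 untreated and of SHMT2 with IFNγ were lost in 4 and 5 of 20 other settings.

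**Figure D1:**
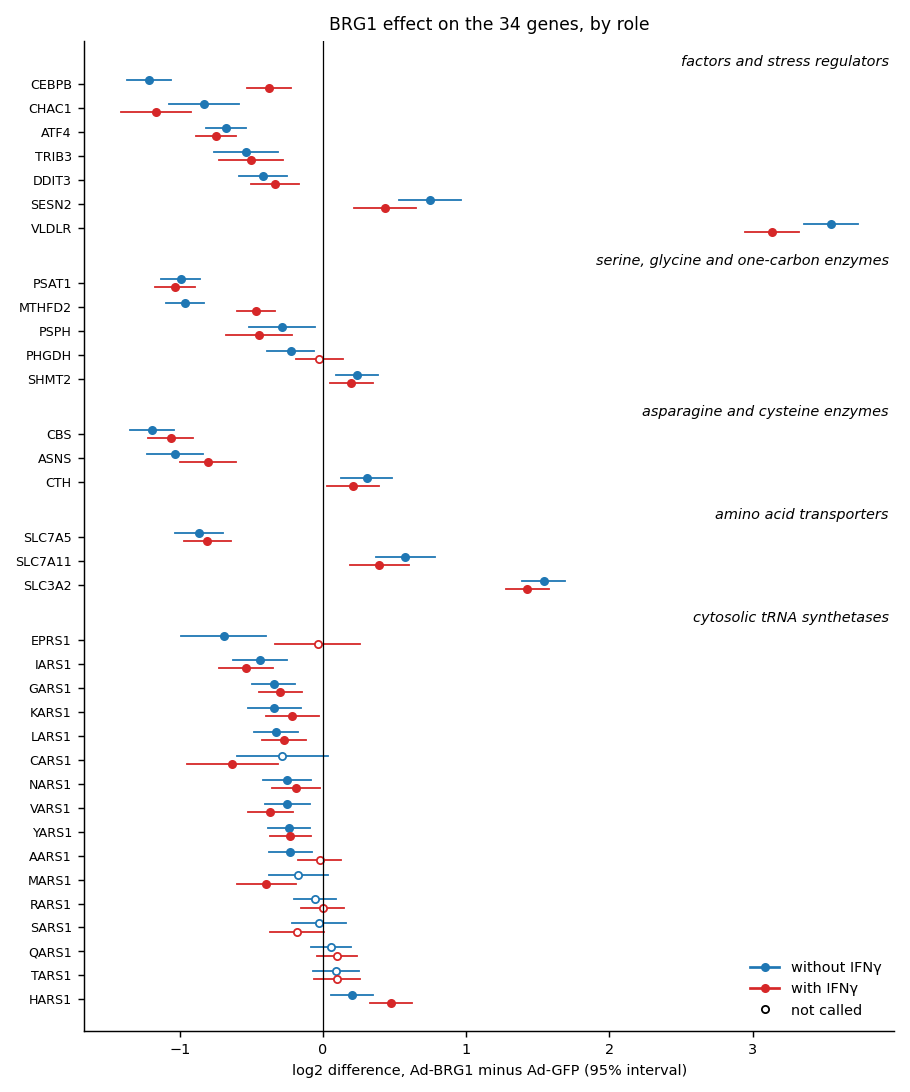
Log2 difference between Ad-BRG1 and Ad-GFP cells (x axis, points, with 95% intervals) for the 34 genes by role, without IFNγ in blue and with IFNγ in red; open points were not called. Most points lie left of 0, down to -1.21 for CEBPB, while SLC3A2 at 1.54 lies far to the right. VLDLR is plotted at its fitted value, but it was not above background in Ad-GFP cells and only the bounds of at least 9.77-fold and 7.15-fold can be read for it.

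Among the transcription factors and stress regulators, 5 of 7 were lower with BRG1 in both states and 2 were higher. ATF4 read 13.48, 13.60 and 13.51 on the untreated Ad-GFP arrays and 12.84, 12.89 and 12.82 on the untreated Ad-BRG1 arrays (log2 intensity). With IFNγ it read 13.55, 13.59 and 13.67 against 12.80, 12.93 and 12.84. Every Ad-BRG1 array lay below every Ad-GFP array, and the responses to IFNγ, 0.07 in Ad-GFP cells and 0.00 in Ad-BRG1 cells, were not called. The difference was -0.68 on the log2 scale (SE 0.06), or 1.60-fold lower, untreated (limma adjusted p = 1.88e-06) and -0.75, or 1.68-fold lower, with IFNγ (limma adjusted p = 6.63e-07). A second, dimmer ATF4 probe gave -0.66 and -0.96.

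CEBPB, a bZIP factor that binds DNA together with ATF4, read 12.06, 12.02 and 12.07 on the untreated Ad-GFP arrays and 10.77, 10.92 and 10.83 on the untreated Ad-BRG1 arrays. With IFNγ the values were 12.07, 11.85 and 11.97 against 11.62, 11.64 and 11.51. The untreated Ad-BRG1 arrays thus stood apart at the bottom, and the IFNγ-treated Ad-BRG1 arrays lay between them and the Ad-GFP arrays without overlap. BRG1 lowered CEBPB 2.32-fold in untreated cells (log2 -1.21, SE 0.07, limma adjusted p = 2.68e-08) and by less with IFNγ (log2 -0.38, limma adjusted p = 0.000572).

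CHAC1, an enzyme that degrades glutathione and a sensitive target of ATF4, was dim, at 6.73, 6.52 and 6.67 under Ad-GFP and 5.61, 5.85 and 5.96 under Ad-BRG1 in untreated cells. After IFNγ it read 6.96, 6.86 and 7.04 against 6.01, 5.68 and 5.67, so the groups were apart in both states. The differences were -0.83 (SE 0.11, limma adjusted p = 4.15e-05) and -1.17 (limma adjusted p = 1.90e-06). DDIT3, which encodes CHOP, fell by 0.42 and 0.34 on the log2 scale, and TRIB3, a pseudokinase that restrains ATF4, fell by 0.54 and 0.50.

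SESN2, a leucine sensor that holds back mTORC1, went the other way. It read 6.00, 6.03 and 6.09 under Ad-GFP and 7.01, 6.79 and 6.56 under Ad-BRG1 in untreated cells. With IFNγ it read 5.93, 6.07 and 6.14 against 6.51, 6.43 and 6.49. No Ad-BRG1 value fell among the Ad-GFP values, although the untreated Ad-BRG1 arrays were the most spread of the 4 groups. The differences were 0.75 (SE 0.10, limma adjusted p = 3.85e-05) and 0.43 (limma adjusted p = 0.00226).

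VLDLR, a lipoprotein receptor that ATF4 is known to induce under ER stress, changed most of the 34. It was not well above background on any of the 6 Ad-GFP arrays, at 5.13, 5.18 and 5.04 untreated and 5.13, 5.26 and 4.95 with IFNγ, and read 8.68, 8.78 and 8.54 on the untreated Ad-BRG1 arrays. On the IFNγ-treated Ad-BRG1 arrays it read 8.26, 8.26 and 8.22. On its brighter probe VLDLR was therefore present with BRG1 and not detected without it. It was at least 9.77-fold higher in untreated cells and at least 7.15-fold higher with IFNγ. These bounds set the mean of the Ad-BRG1 arrays against the lowest signal that was detected on each Ad-GFP array, or the probe's own signal where that was higher. VLDLR passed the detection filter through the Ad-BRG1 groups alone, so its calls with BRG1 are not independent of that filter. A second VLDLR probe was not detected on any array.

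For the dim genes the size of the difference depended on background correction. Without it the untreated and IFNγ differences were -0.31 and -0.46 for CHAC1, 0.30 and 0.16 for SESN2, and 0.20 and 0.14 for SLC7A11, and each was still called. CARS1 with IFNγ went from -0.63 to -0.34 and was also still called. The bounds for VLDLR hold for background-corrected values only: uncorrected, the Ad-BRG1 and Ad-GFP means differed by 1.799 and 1.503 on the log2 scale, which is less than those bounds.

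**Figure D2:**
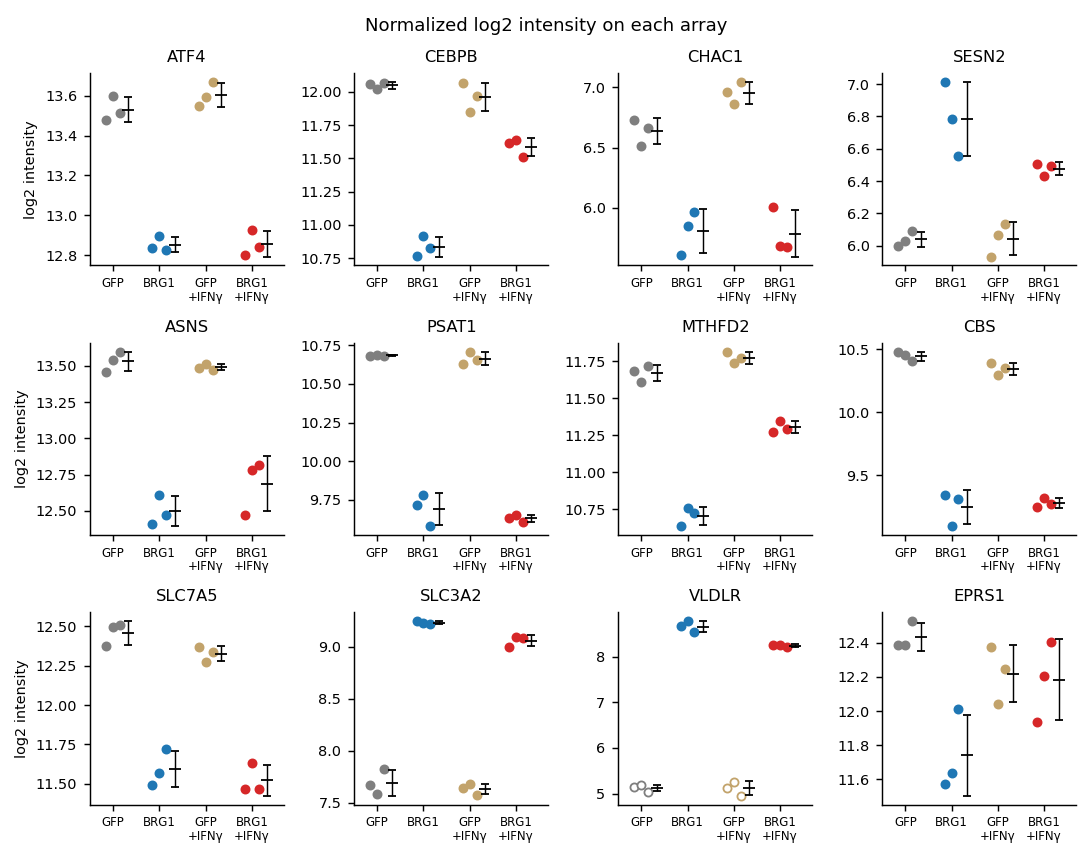
Normalized log2 intensity (y axis, own range in each panel) on each of the 12 arrays for 12 of the genes, 3 arrays a group, with the group mean and SD beside them; open points were not above background. ATF4, ASNS, PSAT1, CBS and SLC7A5 are lower on all 6 Ad-BRG1 arrays, SLC3A2 and VLDLR are higher on all 6, and CEBPB and MTHFD2 form a separate level in Ad-BRG1 cells with IFNγ.

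Serine is made from a glycolytic intermediate by PHGDH, PSAT1 and PSPH in turn, and SHMT2 and MTHFD2 then pass its carbon to folate in mitochondria. With BRG1 4 of these 5 were lower and SHMT2 was higher in untreated cells, and the middle step changed most. PSAT1 read 10.68, 10.69 and 10.68 under Ad-GFP and 9.71, 9.78 and 9.58 under Ad-BRG1 in untreated cells. With IFNγ the values were 10.63, 10.71 and 10.65 against 9.63, 9.65 and 9.61. The groups stood about 1 log2 unit apart in either state, with differences of -0.99 (SE 0.06, limma adjusted p = 5.72e-08) and -1.03 (limma adjusted p = 3.38e-08).

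MTHFD2, which oxidizes methylene-folate in mitochondria, read 11.68, 11.61 and 11.71 under Ad-GFP and 10.64, 10.76 and 10.72 under Ad-BRG1 in untreated cells. The IFNγ arrays gave 11.82, 11.73 and 11.77 against 11.27, 11.35 and 11.29. BRG1 lowered it 1.95-fold untreated (log2 -0.96, SE 0.06, limma adjusted p = 4.91e-08) and 1.38-fold with IFNγ (log2 -0.47, limma adjusted p = 2.54e-05), and as for CEBPB the IFNγ-treated Ad-BRG1 arrays formed a level of their own. PHGDH, the first enzyme of the path, read 13.50 to 13.90 over the 12 arrays and differed by -0.23 untreated (limma adjusted p = 0.0225) and by -0.02 with IFNγ (not called). PSPH fell by 0.29 and 0.44, and SHMT2 rose by 0.24 and 0.20 (log2). The untreated calls of PHGDH and PSPH were lost in 4 and 5 of 20 other settings, among them leaving out Ad-GFP untreated replicate 2 or 3 or Ad-BRG1 untreated replicate 1. The call of SHMT2 with IFNγ was lost in 5 of 20.

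ASNS, asparagine synthetase, is the classical target of ATF4 in amino acid starvation. It read 13.46, 13.54 and 13.59 under Ad-GFP and 12.41, 12.61 and 12.47 under Ad-BRG1 in untreated cells. On the IFNγ arrays it read 13.49, 13.51 and 13.47 against 12.47, 12.78 and 12.81. The differences were -1.03 (SE 0.09, limma adjusted p = 1.06e-06) and -0.80 (limma adjusted p = 8.22e-06), and a second ASNS probe gave -0.98 and -1.33.

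CBS and CTH carry homocysteine to cysteine. With BRG1 CBS was lower, while CTH was higher on its brightest probe only. CBS, the first of them, read 10.48, 10.45 and 10.41 under Ad-GFP and 9.35, 9.10 and 9.31 under Ad-BRG1 in untreated cells, and 10.39, 10.29 and 10.35 against 9.25, 9.32 and 9.27 with IFNγ. The groups were more than 0.9 apart on every pair of arrays, with differences of -1.19 (SE 0.07, limma adjusted p = 3.22e-08) and -1.06 (limma adjusted p = 7.66e-08). CTH differed by 0.30 (limma adjusted p = 0.0073) and 0.21 (limma adjusted p = 0.0439) on its brightest probe, but its other probes, both near background, gave -0.07 and 0.02 untreated and 0.03 and -0.24 with IFNγ. With the mean of the CTH probes neither difference was called, at 0.09 untreated and -0.0003 with IFNγ. The call of CTH with IFNγ was lost in 11 of 20 other settings, besides this reversal.

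The 3 transporters form a pair of exchangers. SLC7A5 imports leucine and other large amino acids, SLC7A11 imports cystine in exchange for glutamate, and SLC3A2 is the heavy chain that carries either of them to the cell surface. SLC7A5 read 12.37, 12.50 and 12.51 under Ad-GFP and 11.49, 11.57 and 11.72 under Ad-BRG1 in untreated cells. With IFNγ it read 12.37, 12.28 and 12.34 against 11.47, 11.63 and 11.46. All 6 Ad-BRG1 arrays lay below all 6 Ad-GFP arrays, by 0.87 on the log2 scale untreated (SE 0.08, limma adjusted p = 1.18e-06) and 0.81 with IFNγ (limma adjusted p = 1.83e-06).

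SLC3A2, its partner chain, was higher with BRG1. It read 7.67, 7.58 and 7.83 under Ad-GFP and 9.25, 9.23 and 9.22 under Ad-BRG1 in untreated cells. With IFNγ it read 7.64, 7.68 and 7.58 against 9.002, 9.09 and 9.09. The gap was wide beside the spread of the arrays, at 2.91-fold untreated (log2 1.54, SE 0.07, limma adjusted p = 2.77e-09) and 2.69-fold with IFNγ (log2 1.43, limma adjusted p = 4.15e-09). A single SLC3A2 probe was on the array, so which of the gene's transcripts it reports was not checked. SLC7A11 was dim, at 5.37 to 5.65 untreated with Ad-GFP, where it was detected on 2 of 3 arrays, and rose by 0.57 (limma adjusted p = 0.000213) and 0.39 (limma adjusted p = 0.00303) with BRG1.

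The 16 cytosolic synthetases each load tRNA with its own amino acid, or with 2 in the case of EPRS1. With BRG1 9 were lower and 1 was higher in untreated cells, and again 9 lower and 1 higher with IFNγ, with medians of -0.24 and -0.20. Of all genes 30.3% were lower and 26.7% higher untreated, and 32.8% and 28.3% with IFNγ. The 7 that were lower in both states were GARS1, IARS1, KARS1, LARS1, NARS1, VARS1 and YARS1, which load glycine, isoleucine, lysine, leucine, asparagine, valine and tyrosine. The changes were small, 1.17-fold to 1.62-fold for those lower in untreated cells, and the largest of those lower in both was IARS1 at -0.44 (limma adjusted p = 0.000909) and -0.54 (limma adjusted p = 0.000164). HARS1, the histidine enzyme, was the exception that rose, by 0.20 and 0.47. Its untreated call (limma adjusted p = 0.0231) was lost in 4 of 20 other settings, each with an array left out. QARS1, RARS1, SARS1 and TARS1, for glutamine, arginine, serine and threonine, were called in neither state, with differences between -0.18 and 0.10. Of the calls with IFNγ, NARS1 (limma adjusted p = 0.0496) and KARS1 (limma adjusted p = 0.0432) lay close to the threshold and were lost in 13 and 9 of 20 other settings. With the mean of its probes VARS1 was called in neither state, at -0.19 (limma adjusted p = 0.0783) and -0.20 (limma adjusted p = 0.0652).

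For CARS1, the cysteine enzyme, the untreated arrays overlapped, at 7.29, 7.29 and 6.93 under Ad-GFP and 7.09, 7.02 and 6.56 with Ad-BRG1. With IFNγ the values were 7.65, 7.36 and 7.70 against 7.08, 6.89 and 6.85 and did not overlap. The differences were -0.28 (SE 0.15, limma adjusted p = 0.117) and -0.63 (limma adjusted p = 0.00238). EPRS1, which loads glutamate and proline, showed the reverse order. It read 12.39, 12.39 and 12.53 under Ad-GFP and 11.57, 11.64 and 12.01 under Ad-BRG1 in untreated cells, and 12.37, 12.04 and 12.24 against 11.94, 12.21 and 12.41 with IFNγ. It was apart in untreated cells (log2 -0.69, SE 0.14, limma adjusted p = 0.000843) and overlapped with IFNγ (log2 -0.04, limma adjusted p = 0.83). For neither gene was the change between the states itself called (limma adjusted p = 0.281 for CARS1 and 0.0543 for EPRS1).

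Because ATF4 and C/EBP proteins bind a composite site together, the promoters of the genes were searched for its letters, TGATGNAA, on both strands (the reverse complement is TTNCATCA). RefSeq promoter windows of 300 bases, from 250 before to 50 after a start site (GRCh38.p14), were at hand for 28 of the 34 genes. The letters were found in 10 of the 28, 7 of them synthetases with AARS1, CARS1, GARS1, IARS1, MARS1, NARS1 and TARS1. Of the 42 windows of these genes 23.8% held a match, against 3.62% of 35116 windows in the whole table. By gene the share was 35.7%, against 2.94% of the genes tested that had a window. The list was chosen in part for links to ATF4, so the higher share is not independent of that choice. A match describes letters and is not a bound site. The following 6 are shown because they carry the same core while their genes span the range of the BRG1 effect, 5′ to 3′ on the gene's strand with the match in capitals.
ASNS: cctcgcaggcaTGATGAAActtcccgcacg
CHAC1: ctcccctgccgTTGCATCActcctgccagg
CARS1: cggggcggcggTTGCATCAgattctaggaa
IARS1: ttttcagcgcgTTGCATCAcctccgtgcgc
TARS1: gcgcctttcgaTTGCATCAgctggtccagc
SLC3A2: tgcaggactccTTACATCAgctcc

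These lie at chr7:97872458-97872487 (minus strand) for ASNS, chr15:40953251-40953280 (plus) for CHAC1, chr11:3057407-3057436 (minus) for CARS1, chr9:92293692-92293721 (minus) for IARS1, chr5:33440956-33440985 (plus) for TARS1 and chr11:62881725-62881748 (plus) for SLC3A2. Counted from the start site, the first capital is at -68 in ASNS, -209 in CHAC1, -2 in CARS1, -13 in IARS1, 3 in TARS1 and 38 in SLC3A2. The ASNS match reads as searched and the others as its reverse complement. CHAC1, CARS1, IARS1 and TARS1 hold the same 8 capitals, and their genes differed with BRG1 in untreated cells by -0.83, -0.28 (not called), -0.44 and 0.09 (not called), while SLC3A2 rose. Of the 10 genes with a match 6 were lower, 1 was higher and 3 were not called in untreated cells, with a median of -0.27, and of the 18 without a match 11 were lower, 4 were higher and 3 were not called, with a median of -0.38. Synthetases made up 7 of the 10 and 6 of the 18. The sets thus differ in their mix of roles, and whether the letters bear on the change was not tested.

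The second question was what IFNγ did to these genes, and whether BRG1 changed that. In Ad-GFP cells limma called 1 of the 34 lower and 0 higher, against 0.977% and 3.10% of all genes, and 3 were higher and 1 lower at an unadjusted p under 0.05. The single call was DDIT3, at -0.31 (SE 0.08, limma adjusted p = 0.0405), and it was lost when any of 9 arrays was left out. In Ad-BRG1 cells 5 were higher and 5 lower, against 13.1% and 19.6% of all genes. Average normalization without background correction, as the authors scaled their values, gave 6 higher and 3 lower, and the share of higher genes among all calls in this comparison went from 40.1% to 53.2%. Dropping the background correction alone gave a share of 41.6%. The medians of the 34 were -0.03 and 0.00, where those of all genes were -0.02 and -0.04.

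In Ad-BRG1 cells the genes that rose with IFNγ were CEBPB by 0.75 (SE 0.07, limma adjusted p = 9.65e-06), MTHFD2 by 0.60 (SE 0.06, limma adjusted p = 1.76e-05), EPRS1 by 0.44, HARS1 by 0.25 and RARS1 by 0.25. The single arrays given above show the first of these without overlap, from 10.77 to 10.92 untreated up to 11.51 to 11.64 with IFNγ. MTHFD2 went from 10.64 to 10.76 up to 11.27 to 11.35. EPRS1, which in human monocytic cells joins an IFNγ-induced complex that silences translation, overlapped, at 11.57 to 12.01 against 11.94 to 12.41 (limma adjusted p = 0.0269).

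The genes that fell with IFNγ in Ad-BRG1 cells were VLDLR by 0.42 (SE 0.09, limma adjusted p = 0.00404), PSPH by 0.31, SESN2 by 0.31, CTH by 0.26 and DDIT3 by 0.23. A second PSPH probe gave 0.00. Apart from CEBPB, MTHFD2 and VLDLR, each of these calls was lost in at least 3 of 20 other settings. The counts were 2 higher and 1 lower without Ad-BRG1 IFNγ replicate 2, 3 and 1 without its replicate 3, 3 and 3 without Ad-BRG1 untreated replicate 1, and 1 lower without Ad-BRG1 untreated replicate 2.

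The interaction term sets the IFNγ response in Ad-BRG1 cells against that in Ad-GFP cells, from arrays that the 2 responses do not share. It was called higher for 2 of the 34 and lower for 0 (4.32% and 3.83% of all genes), with 4 higher and 2 lower at an unadjusted p under 0.05 in limma. The 2 were CEBPB, at 0.84 (SE 0.10, limma adjusted p = 0.000285), and MTHFD2, at 0.495 (SE 0.09, limma adjusted p = 0.005). In Ad-GFP cells the response of CEBPB was -0.09 and that of MTHFD2 0.10, and neither was called. Next were EPRS1, at 0.66 (SE 0.19, limma adjusted p = 0.0543), and VLDLR, at -0.41 (limma adjusted p = 0.0566), whose Ad-GFP side was below background. The count of 2 went to 5 without Ad-BRG1 IFNγ replicate 1, and the count of 0 went to 2 without Ad-BRG1 untreated replicate 3 and to 1 without Ad-GFP IFNγ replicate 3. Under average normalization without background correction the share of higher genes among all calls of this term went from 53.0% to 63.9%, and 3 of the 34, with EPRS1, were called higher.

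**Figure D3:**
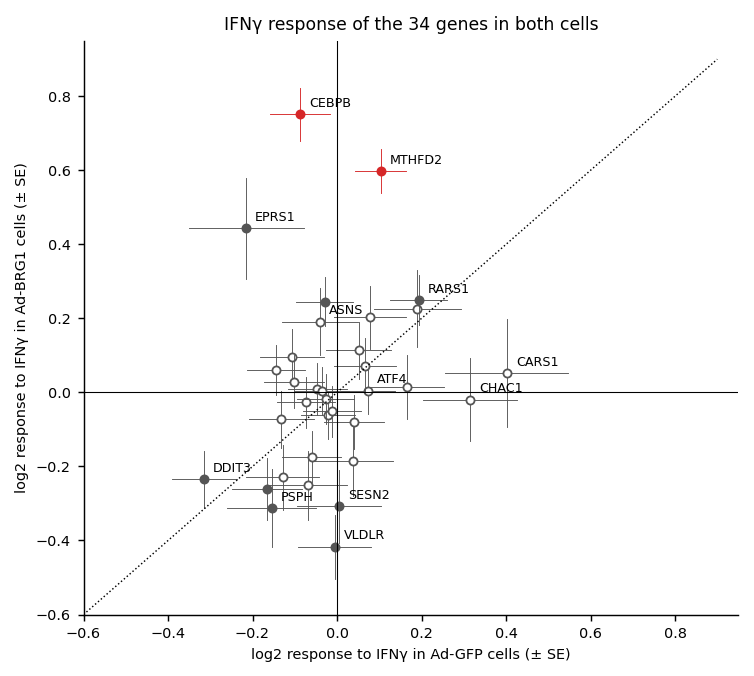
Log2 response to IFNγ in Ad-GFP cells (x axis) and in Ad-BRG1 cells (y axis) for the 34 genes, each with its SE; filled points were called in Ad-BRG1 cells, red points had a called difference between the responses, and the dotted line marks equal responses. CEBPB at 0.75 and MTHFD2 at 0.60 on the y axis stand above the rest, while they lie at -0.09 and 0.10 on the x axis.

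Other targets of ATF4, from a list of 24 of which 21 were tested, went both ways with BRG1: 9 were higher and 8 lower in untreated cells, and 7 and 7 with IFNγ, with medians of 0.16 and -0.11. Of all genes, 26.7% were higher and 30.3% lower untreated, and 28.3% and 32.8% with IFNγ. The largest changes were rises. The lowest of the list, SLC7A1, went from 10.65 ± 0.05 to 9.61 ± 0.06 in untreated cells (log2 mean ± SD, n = 3). It differed by -1.03, and by -1.16 with IFNγ. GDF15, a stress-induced hormone, went from 6.69 ± 0.17 to 9.81 ± 0.17 in untreated cells (log2 mean ± SD, n = 3) and differed by 3.12, or 8.69-fold (limma adjusted p = 3.91e-10). ATF3, a bZIP factor induced by many stresses, went from 6.32 ± 0.24 to 9.29 ± 0.18 and differed by 2.97 (limma adjusted p = 7.58e-10). With IFNγ the differences were 2.87 for GDF15 and 3.03 for ATF3. In background-corrected values both thus stood far above ATF4 itself in the size of their change and opposite to it in direction. Both were about as dim in untreated Ad-GFP cells as CHAC1, at 6.64, and their differences without background correction were not computed.

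NUPR1, a small stress-induced chromatin protein, was not above background on any Ad-GFP array and was at least 3.33-fold higher with BRG1 untreated and at least 5.92-fold higher with IFNγ. These bounds hold for background-corrected values. Like VLDLR, NUPR1 passed the detection filter through the Ad-BRG1 groups alone, so its calls with BRG1 are not independent of that filter. DDIT4, an inhibitor of mTORC1, differed by 1.53 untreated and 0.77 with IFNγ. PPP1R15A, also called GADD34, brings a phosphatase to eIF2 and so reverses the block on translation. It went from 10.18 ± 0.03 to 11.38 ± 0.07 in untreated cells and differed by 1.20 (SE 0.06, limma adjusted p = 5.55e-09), and by 1.13 with IFNγ. WARS1, the tryptophan synthetase and a well known IFNγ-induced gene, was higher with BRG1 by 0.78 untreated and 2.77 with IFNγ. Its response to IFNγ was 0.42 in Ad-GFP cells (limma adjusted p = 0.00506) and 2.40 in Ad-BRG1 cells (limma adjusted p = 7.01e-11), a difference of 1.99 (SE 0.10, limma adjusted p = 6.27e-08). Of the 16 synthetases among the 34, EPRS1 and HARS1 came nearest to a called interaction, with limma adjusted p of 0.0543 and 0.0861.

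The machinery upstream of ATF4 was measured by 15 of 16 listed genes, of which 3 were higher and 6 lower with BRG1 in untreated cells, and 4 and 8 with IFNγ. Among the 15 were EIF2A, which is not a subunit of eIF2, and IMPACT and PPP1R15B, both near background. IMPACT was not detected on any Ad-BRG1 array, and its bounds were only 1.04-fold lower untreated and 1.12-fold lower with IFNγ. The shares of all genes were 26.7% higher and 30.3% lower untreated, and 28.3% and 32.8% with IFNγ. EIF2S2, the beta subunit of eIF2, went from 8.23 ± 0.05 to 6.55 ± 0.11 in untreated cells and differed by -1.69 (SE 0.09, limma adjusted p = 1.33e-08), and by -1.78 with IFNγ. EIF2AK3, the eIF2 kinase of the ER also known as PERK, differed by 1.02 (SE 0.14, limma adjusted p = 3.92e-05) and 0.39 (limma adjusted p = 0.0239). It was dim, with a mean of 5.905 in untreated Ad-GFP cells, and its differences without background correction were not computed. Genes of the ER unfolded protein response outside ATF4 were mostly higher, 8 of 14 tested against 1 lower in untreated cells, with a median of 0.31 untreated and 0.29 with IFNγ. DNAJC3, an inhibitor of eIF2 kinases, differed by 1.65 (SE 0.24, limma adjusted p = 7.05e-05) and 1.60. It was dim in Ad-GFP cells, and with IFNγ it read 6.08 ± 0.65 there and was detected on 2 of 3 arrays, so the second value is uncertain.

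Of 13 mitochondrial synthetases tested, 5 were lower and 1 higher with BRG1 in untreated cells, with a median of -0.07, and 9 were lower with IFNγ, with a median of -0.47. For this and the next lists, the shares of all genes were 30.3% lower and 26.7% higher untreated, and 32.8% and 28.3% with IFNγ. EARS2, the glutamate enzyme of mitochondria, differed by -0.89 (limma adjusted p = 5.75e-06) and -1.01 (limma adjusted p = 1.68e-06). From a list of other cytosolic synthetase genes and scaffolds 4 were tested, FARSA, FARSB, WARS1 and QRSL1, and no scaffold was among them. WARS1 was also counted with the ATF4 targets above, and QRSL1, which was dim, is not a cytosolic synthetase. These 4 gave 1 higher and 2 lower untreated and 2 higher and 1 lower with IFNγ. Of 8 other folate and serine genes 2 were higher and 2 lower untreated, and 2 and 4 with IFNγ. Of 9 redox genes linked to cystine uptake 2 were higher and 1 lower untreated, and 2 and 2 with IFNγ, and NQO1, a quinone reductase under NRF2, differed by 1.16 (SE 0.09, limma adjusted p = 5.60e-07) and 1.17.

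**Figure D4:**
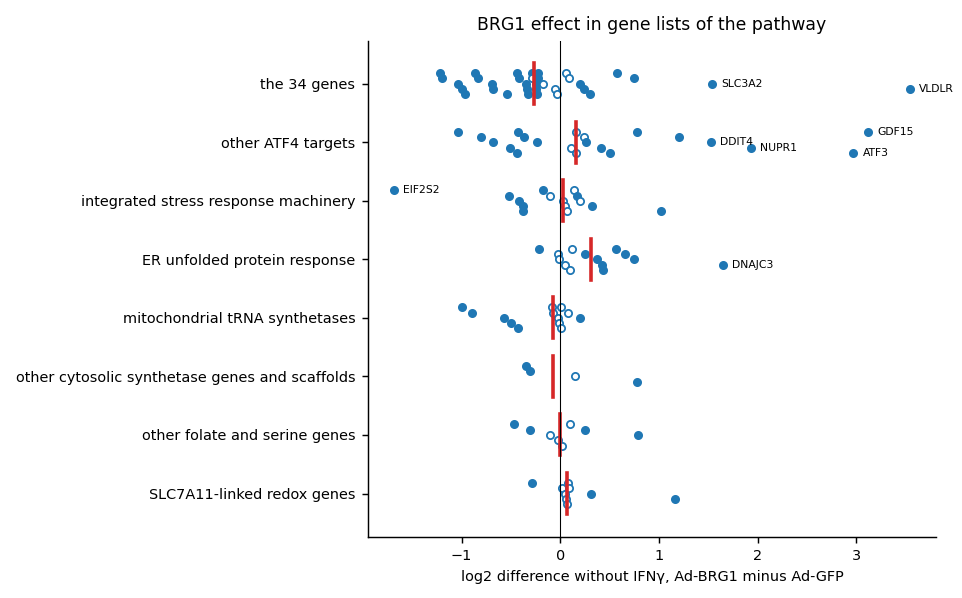
Log2 difference between Ad-BRG1 and Ad-GFP cells without IFNγ (x axis) for each tested gene (points, filled where called) of the 34 genes and of 7 other lists of the pathway, with the median of each list as a red line; vertical position within a list has no meaning. The median of the 34 lies at -0.27 and that of the ER unfolded protein response at 0.31.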

How the data were processed

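RNA from 4 groups of 3 biological replicates was hybridized to Illumina Human-WG6 arrays. The deposited intensity of each probe was summarised by the authors with BeadStudio (version not given in the sources used here) without normalization, beside a detection p-value per probe that the authors also deposited. A second deposited table of intensity values, average-normalized by the authors to a mean of 615 per array, was each array's raw intensity times a constant of 0.924 to 1.14 and served as an alternative. Raw intensities were background-corrected, quantile-normalized and log2-transformed with neqc (limma 3.58.1, R 4.3.3, offset 16, negative controls inferred from detection p). Probes with detection p under 0.05 on all 3 arrays of a group were kept (16233 of 48803). Symbols came from the platform annotation, in which 27578 probes had 1 symbol, 13 several and 21212 none, and 27541 matched RefSeq by gene identifier. The brightest kept probe stood for a gene. Means of the 4 groups were fitted over all 12 arrays (lmFit, eBayes, two-sided) with Benjamini-Hochberg adjustment over 10333 genes and a threshold of 0.05. The number of arrays limits the precision. Values on single arrays are given for ATF4 and for genes of the list called with at least a 1.5-fold difference in any comparison. Genes of other lists are named where called with at least a 2-fold difference, at most 6 a list, largest first. SLC7A1 is added as the lowest of the other ATF4 targets. The 34 genes and the other lists were chosen with earlier results of these data known. The code was tested on simulated data. No deposited array column was left unmatched to a sample. Alternatives were average normalization without background correction, no background correction, no or a stricter detection filter (detection p under 0.01), an offset of 50, the mean of a gene's probes, only the groups compared, a replicate block and each array left out. Figures were drawn with matplotlib 3.10.9.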

Additional observations from a re-analysis of the deposited data

Results flagged for a closer look

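The response to IFNγ differed between Ad-BRG1 and Ad-GFP cells, by the interaction term of the fit, for 2 of the 34 genes. For CEBPB the difference between the responses was 0.84 on the log2 scale (SE 0.10, limma adjusted p = 0.000285), and over 20 other settings it lay between 0.78 and 0.89. For MTHFD2 it was 0.495 (SE 0.09, limma adjusted p = 0.005), and it lay between 0.45 and 0.52. Both stayed past the threshold in all 20 settings, with the highest adjusted p at 0.00151 for CEBPB and 0.0175 for MTHFD2. The 2 genes started lower in untreated Ad-BRG1 cells than in Ad-GFP cells and, with IFNγ, remained lower than in Ad-GFP cells, by 0.38 and 0.47.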

How the results depend on the processing

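Each call was recomputed in the other settings where its gene passed the filter (up to 20), which gave 1358 values; 1245 of these stayed called in the same direction, 112 lost the call and 1 reversed, CTH with IFNγ at -0.0003 with the mean of its probes. With BRG1 6 to 7 genes were higher and 18 to 22 lower in untreated cells, and 5 to 7 higher and 18 to 21 lower with IFNγ. Genes lower with IFNγ in Ad-BRG1 cells went from 5 to 3 under average normalization without background correction, without the detection filter, or with the mean of probes. A fit to the compared groups alone gave 2 higher and 1 lower. Leaving out an array gave 2 to 7 higher and 1 to 5 lower there, 0 to 1 lower in Ad-GFP cells, and 2 to 5 higher and 0 to 2 lower for the interaction. Without background correction the interaction had 4 higher and 1 lower, and 1 lower with detection p under 0.01 or an offset of 50. DDIT3 in Ad-GFP cells was lost (0 lower) without the detection filter.

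Of the values that were not called, the BRG1 differences and the interactions of EPRS1 and VLDLR were recomputed. The reversals among them came from leaving out 1 array, and the ranges over the arrays left out were -0.117 to 0.0536 for SARS1 untreated and, with IFNγ, -0.0627 to 0.0127 for AARS1, -0.149 to 0.0871 for EPRS1, -0.0728 to 0.0366 for RARS1 and -0.046 to 0.008 for PHGDH. The causes were not tested.

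Over all genes the interaction called 446 higher and 396 lower, against 761 and 722 without background correction, 811 and 459 with average normalization without background correction and 634 and 589 with an offset of 50. For IFNγ in Ad-BRG1 cells a fit to those groups alone called 915 and 1268 instead of 1355 and 2024.

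Whether the replicate numbers pair the samples could not be told: of 12 same-number pairs, 6 had deviations correlated over 0.1 (range -0.15 to 0.44). With a replicate block DDIT3 in Ad-GFP cells was lost (0 lower), the calls of CTH (adjusted p = 0.059 in limma) and NARS1 (0.0567) with IFNγ were lost, the interaction was also called for EPRS1 and had 1 lower, VLDLR, and the interaction over all genes called 727 and 611. A block for the chip was not run, since the chip of each array is not given in the sources used here. Dim probes (CHAC1, SESN2, SLC7A11, VLDLR) limit the size of a difference more than its direction.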
